A study of Mus musculus with 47 samples.

Results

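The genes described here are 94 developmental transcription factor genes among the 23416 genes counted in 10 RNA-seq libraries of mouse liver and spermatozoa. They were chosen by symbol alone: 39 Hox genes, 19 Sox genes, 13 Tbx genes, 9 Pax genes, 8 Lhx genes and 6 Gata genes. The Hox genes comprised 11 of the Hoxa, 10 of the Hoxb, 9 of the Hoxc and 9 of the Hoxd cluster. Genes of these families are textbook targets of Polycomb repression, but no chromatin measurement entered the values below, so Polycomb occupancy of each gene was not analysed here.

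The study asked whether the loss of SCML2, a germline Polycomb protein, in a father alters gene expression in his offspring. Fathers were Scml2-KO males (Scml2 -/y, disrupted with zinc finger nucleases, C57BL/6 background) or wild-type littermates, and their testicular sperm were injected into BDF1 oocytes (ICSI) to give the KO-F1 and Ctrl-F1 males, labelled BDF2. Scml2 is X-linked, so sons of both kinds of father were wild-type for it, and all of these F1 males shared conception by ICSI. KO-F2 males, labelled BDF3, came from natural mating of KO-F1 males with C57BL/6 females, and no F2 group from control fathers was analysed here. Males were 8 to 12 weeks old. Each of the 5 groups (Ctrl-F1 liver, KO-F1 liver, and Ctrl-F1, KO-F1 and KO-F2 spermatozoa) had 2 libraries, described by the study as independent biological replicates.

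Liver libraries held between 11339729 and 14278900 counts, F1 spermatozoa libraries between 1503733 and 2778171, and the KO-F2 spermatozoa libraries 11462105 and 8384266. The KO-F2 libraries carry a sequencing run name in their labels and the F1 spermatozoa libraries carry none, so that run, depth, generation, labelled strain and mode of conception cannot be told apart in any comparison with KO-F2. The ribosomal RNA precursor gene Rn45s took between 3.52% and 28.7% of the counts in spermatozoa and at most 1.59% in liver. The 18 spermatid and sperm markers summed to between 44801 and 152322 CPM (counts per 1000000 counts of the library) in the spermatozoa libraries, and the 10 hepatocyte markers to between 136212 and 147557 CPM in liver and at most 286 CPM in spermatozoa. Both tissue labels therefore matched their defining markers. Scml2 itself had no count in any liver library and between 0 and 18 counts in the spermatozoa libraries, too few to serve as a check of the groups.

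Hox genes stand in 4 clusters in which the order of the genes along the chromosome follows the order of their expression along the body axis of the embryo. Polycomb complexes keep these genes silent outside their proper domain: PRC2 places H3K27me3, PRC1 places monoubiquitin on H2A, and both act preferentially at promoters rich in CpG dinucleotides. Sox, Pax, Tbx, Gata and Lhx factors likewise direct lineages such as gonad, kidney, heart, blood and nervous system. In the male germline many of their promoters carry H3K4me3 and H3K27me3 at once, a state called bivalent that is retained in part on sperm chromatin.

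The promoters of some members on which the results turn are printed here because the density of CpG is the sequence feature that Polycomb recruitment is best known for. Sequences are from RefSeq on GRCm38.p6, the 250 bases before each annotated start, 5′ to 3′ on the strand of the gene, with every CpG dinucleotide in capitals. Tbx19 lies on the minus strand with its promoter at chr1:165160774-165161023, Hoxd8 on the plus strand at chr2:74704365-74704614, Pax8 on the minus strand at chr2:24475600-24475849 and Sox4 on the minus strand at chr13:28953700-28953949.
Tbx19: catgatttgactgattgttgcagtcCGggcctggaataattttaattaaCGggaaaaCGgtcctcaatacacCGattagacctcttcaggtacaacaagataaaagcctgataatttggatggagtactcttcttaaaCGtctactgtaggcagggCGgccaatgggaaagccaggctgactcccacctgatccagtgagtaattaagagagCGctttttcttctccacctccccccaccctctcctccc
Hoxd8: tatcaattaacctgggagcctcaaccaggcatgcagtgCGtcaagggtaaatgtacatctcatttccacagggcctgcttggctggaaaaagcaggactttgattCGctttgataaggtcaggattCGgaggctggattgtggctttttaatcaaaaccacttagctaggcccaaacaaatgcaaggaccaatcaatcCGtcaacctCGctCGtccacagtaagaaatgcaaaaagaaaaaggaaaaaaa
Pax8: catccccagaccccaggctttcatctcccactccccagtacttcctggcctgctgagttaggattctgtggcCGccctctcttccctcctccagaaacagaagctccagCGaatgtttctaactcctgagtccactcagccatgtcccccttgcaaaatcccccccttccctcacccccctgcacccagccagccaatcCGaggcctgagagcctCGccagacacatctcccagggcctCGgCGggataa
Sox4: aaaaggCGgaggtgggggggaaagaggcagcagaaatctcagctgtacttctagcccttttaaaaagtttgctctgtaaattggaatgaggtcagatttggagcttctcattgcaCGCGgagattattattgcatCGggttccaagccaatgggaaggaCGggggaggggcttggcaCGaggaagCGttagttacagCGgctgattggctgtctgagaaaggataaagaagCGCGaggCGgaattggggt
These 4 windows held 7, 6, 6 and 11 CpG dinucleotides respectively. Only the Sox4 window met both marks of a CpG-rich promoter used here, a GC content of at least 50% and an observed to expected CpG ratio of at least 0.6. Its ratio was 0.80, against 0.50 for Tbx19, 0.49 for Hoxd8 and 0.31 for Pax8. Promoters were matched for 62 of the 94 members, giving 80 windows because some genes have several starts. Of these, 40 (50.0%) were CpG-rich, against 31.0% of the 32851 windows of all genes and 41.5% of the 21263 windows of protein-coding genes. The median window held 13 CpG dinucleotides among the members and 6 among all genes. By family the CpG-rich share ranged from 33.3% of the 12 Tbx windows to 80.0% of the 5 Gata windows. It was 45.8% of the 24 Hox windows. Hoxa4, Hoxb2, Hoxb6, Hoxb7, Hoxb9, Sox9 and Tbx3, which recur below, had no matched promoter, so these shares do not cover them.

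Spermatozoa held RNA of more of these genes than liver did. A gene was taken as detected in a library with 3 or more counts. Ctrl-F1 liver libraries detected 22 and 27 of the 94 members and KO-F1 liver libraries 22 and 24. Ctrl-F1 spermatozoa detected 38 and 34, KO-F1 spermatozoa 45 and 44, and KO-F2 spermatozoa 61 and 62. The order among the spermatozoa groups followed depth in part. With every library thinned at random to 1503733 counts, the Ctrl-F1 spermatozoa libraries detected 32 and 34, KO-F1 41 and 40, and KO-F2 38 and 42, while liver fell to between 9 and 13. The thinned Ctrl-F1 spermatozoa libraries detected 50.6% and 46.8% of all genes, those of KO-F1 51.8% and 51.5%, and those of KO-F2 55.0% and 56.3%, so over all genes too both KO-F1 and both KO-F2 libraries were above both controls. Thinned liver libraries detected between 43.2% and 44.3% of all genes, so over all genes too liver was below every spermatozoa library at equal depth. Rn45s took unequal shares of these libraries, and with it left out and the rest thinned to 1071529 counts, an alternative chosen after the data were seen, Ctrl-F1 spermatozoa detected 35 and 34 members, KO-F1 40 and 43, and KO-F2 36 and 35. Both KO-F1 libraries thus detected more members than both Ctrl-F1 libraries under either thinning. The KO-F2 libraries, which stood apart at full depth, came within 2 genes of Ctrl-F1 under the second. After this second thinning the controls detected 49.6% and 46.8% of all genes, whereas KO-F1 reached 50.5% and 51.6%, and each KO-F2 library 52.9%. Over all genes, both KO-F1 libraries were therefore above both controls under either thinning, as they were for the members. At full depth, between 46.8% and 55.3% of all 23416 genes passed the same floor in F1 spermatozoa, and between 54.4% and 55.7% in liver. For KO-F2 spermatozoa these shares were 69.3% and 70.4%. The members' shares were lower in every library, 36.2% to 47.9% in F1 spermatozoa, 64.9% and 66.0% in KO-F2 spermatozoa and 23.4% to 28.7% in liver.

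**Figure D1:**
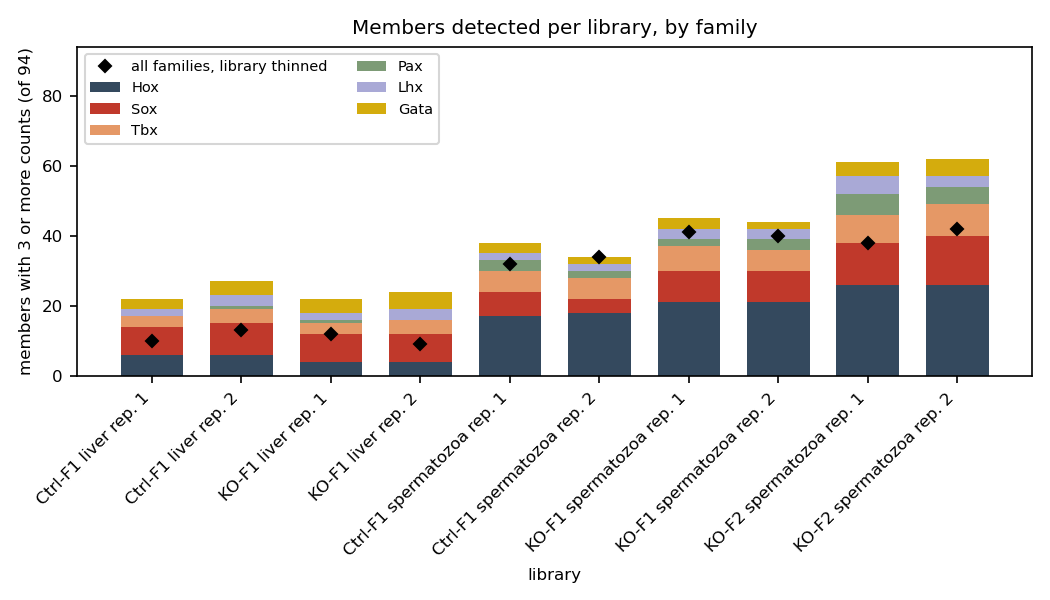
Number of the 94 members with 3 or more counts (vertical axis) in each of the 10 libraries (horizontal axis), stacked by family, with a diamond at the number left when every library was thinned to 1503733 counts. Hox genes make up the largest block in all 6 spermatozoa libraries, 17 to 26 genes, and a block of 4 to 6 genes in liver.

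Of the 94 members, 78 were detected in at least 1 library, 7 in all 10 and 16 in none, and 12 of these 16 had no count anywhere. The 16 were named after their values were seen: 6 Hox genes (Hoxa13, Hoxc11, Hoxc12, Hoxc13 and Hoxd12 from the 5′ ends of their clusters, and Hoxd1), 4 Sox genes (Sox2, Sox3, Sox14 and Sox21), the LIM homeobox genes Lhx3, Lhx4 and Lhx5, Pax4, Pax7 and Tbx4. In the smallest spermatozoa library a count below 3 allows a level of up to 1.995 CPM, and in the deepest liver library of up to 0.21 CPM, so absence is stated only above those limits. All 6 spermatozoa libraries detected 26 members, and 14 of the 26 were below the floor in every liver library: Hoxa10, Hoxb6, Hoxb7, Hoxb9, Hoxc9, Hoxd3, Hoxd8, Hoxd9, Gata3, Pax2, Sox30, Tbx1, Tbx15 and Tbx19. The reverse, detection in all 4 liver libraries and in no spermatozoa library, held for Gata4 and Tbx20 only.

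Summed over the 94 genes, the members took 80.5 and 99.7 CPM in Ctrl-F1 liver and 90.7 and 69.5 CPM in KO-F1 liver. In spermatozoa they took 1063 and 1140 CPM in Ctrl-F1, 2496 and 1688 CPM in KO-F1, and 860 and 1053 CPM in KO-F2. The spermatozoa libraries of every group were thus far above all liver libraries, and both KO-F1 libraries were above the other 4 spermatozoa libraries. In bulk RNA a difference in the share of a cell type and a difference in RNA per cell cannot be told apart, and this holds for every level given here.

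Ranked per kilobase of exon within Ctrl-F1 spermatozoa, the members were led by Hoxa4 at 199 CPM per kb, a Hox gene whose adult expression is known from male germ cells. It was followed by Tbx19, a regulator of the pituitary corticotroph lineage, at 42.6 CPM per kb and by Tbx2, a transcriptional repressor of heart and limb development, at 19.3 CPM per kb. Hoxd9 (14.5 CPM per kb), Hoxd8 (14.0 CPM per kb) and Hoxb7 (13.4 CPM per kb) came next and lay close to each other. In KO-F1 spermatozoa the order was different: Hoxb7 and Hoxa4 both stood at 101 CPM per kb, ahead of Hoxb6 at 81.3 and Hoxd8 at 56.8 CPM per kb. In KO-F2 spermatozoa Hoxa4 (167 CPM per kb) and Tbx19 (67.9 CPM per kb) again led, and Hoxb7 stood at 15.7 CPM per kb. In liver the order was led by Gata4, a factor of the foregut endoderm and heart, at 3.47 CPM per kb in Ctrl-F1, then Tbx3 (2.50 CPM per kb), the endothelial factor Sox18 (2.28 CPM per kb) and Sox13 (1.43 CPM per kb).

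Ctrl-F1 spermatozoa were compared with Ctrl-F1 liver to show which members mark each sample type. Of the 31 members with enough counts to be tested, 19 were called higher in spermatozoa and 1 lower. A call here required an adjusted p below 0.01 (edgeR's quasi-likelihood test, Benjamini-Hochberg adjustment over all genes tested) together with a 2-fold or larger difference. Of the 13204 genes tested, 30.2% passed these thresholds, 18.6% higher and 11.6% lower. Of the 31, 20 reached the level needed for the test only in spermatozoa, all 11 Hox genes among them, and 3 only in liver, so the direction of these 23 was fixed by entry and the count of calls is a description. Of the 11 Hox genes 9 were called. The 2 sample types were prepared with different library kits, a stranded poly(A) kit for liver and an amplification kit without strand for spermatozoa, and kit and tissue cannot be told apart.

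Hoxa4 stood at 304.5 and 329 CPM in Ctrl-F1 spermatozoa and at 0.42 and 0.29 CPM in Ctrl-F1 liver. Its log2 fold change was 10.01 (SE 0.45, adjusted p = 0.00121, edgeR). Tbx19 stood at 145 and 127 CPM in Ctrl-F1 spermatozoa and had a total of 1 count in the liver of these males. Hoxd8, Hoxd9, Hoxb6, Hoxb9, Hoxa10 and Hoxd3 had no count in either Ctrl-F1 liver library, so with a floor of 3 counts per library their means in spermatozoa were at least 181-fold, 146-fold, 103-fold, 104-fold, 88.9-fold and 83.2-fold higher. Sox30, a factor of postmeiotic male germ cells, was likewise at least 114-fold higher, with 28.8 and 19.3 CPM in Ctrl-F1 spermatozoa. Pax2, a factor of the kidney and of the genital ducts, was at least 22.4-fold higher.

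**Figure D2:**
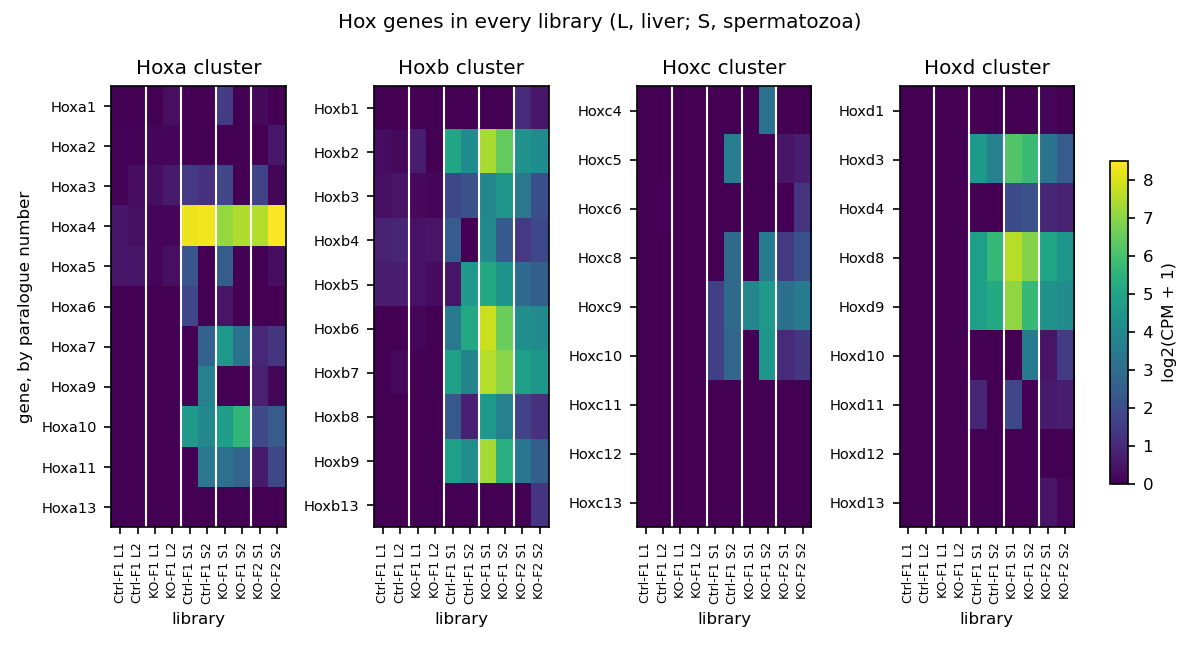
Level of each of the 39 Hox genes in log2(CPM + 1) (colour) in all 10 libraries (columns; L, liver; S, spermatozoa; white lines divide the groups), 1 panel per cluster with genes in the order of their paralogue number. Liver columns stay near 0 in all 4 clusters, Hoxa4 is bright in all 6 spermatozoa columns, and Hoxb2, Hoxb6, Hoxb7, Hoxb9, Hoxd8 and Hoxd9 are brightest in the KO-F1 spermatozoa.

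Outside the Hox clusters, Sox4, a factor of progenitor cells in many tissues, rose from 0.21 and 0.36 CPM in Ctrl-F1 liver to 42.9 and 45.2 CPM in Ctrl-F1 spermatozoa (log2 fold change 7.47, SE 0.53). Tbx2 was higher by 5.47 on the log2 scale (SE 0.36), and Gata2, a factor of blood progenitors that also acts in the urogenital tract, by 6.18 (SE 0.61). The LIM homeobox gene Lhx6 was higher by 3.90 (SE 0.56). Gata3, Pax8 and Tbx1 were also called, with Ctrl-F1 spermatozoa at 11.1 and 36.6, 16.1 and 36.6, and 16.1 and 37.2 CPM. Gata4 was the member called lower: it had 13.0 and 14.1 CPM in Ctrl-F1 liver and no count in Ctrl-F1 spermatozoa, and was at least 8.38-fold lower. Its call (adjusted p = 0.00945, edgeR) was lost with the replicate block (0.0234) and without either Ctrl-F1 liver library (0.0777 and 0.0776). Those of Lhx6 and Pax2 were also lost without either liver library, and that of Pax2 with the block, after thinning, without a filter and without Ctrl-F1 spermatozoa replicate 1. Tbx3, in contrast, was expressed in both tissues and its change of 0.49 was not called.

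The main question of the study for these genes is whether spermatozoa of males from SCML2-deficient fathers differ from those of males from wild-type fathers. Of the genes with a mean of at least 10 counts, 6 of 8 Hoxb genes (Hoxb2, Hoxb3, Hoxb6, Hoxb7, Hoxb8 and Hoxb9), all 3 Hoxd genes (Hoxd3, Hoxd8 and Hoxd9), Sox9, Pax8 and Tbx3 stood higher in CPM in both KO-F1 spermatozoa libraries than in both Ctrl-F1 libraries, and Hoxa4 and Tbx19 stood lower. Of all genes with such a mean, 39% stood higher in this way and 17.2% lower. None of these members passed the call in edgeR's test, so these are differences in level and not called changes. Of 10785 genes tested, 0 were called (percent called 0), the smallest adjusted p was 0.14, and 35 of the tested genes were members. Of the 35, 3 (Hoxb3, Hoxb8 and Sox9) reached the level needed for the test only in KO-F1, so their direction was fixed by entry. They are left out of the count of positive changes that follows. Of the other 32, a positive change was fitted for 24: 15 of 16 Hox, 2 of 6 Sox, 2 of 4 Tbx, 1 of 2 Lhx and both Pax and both Gata genes. At an unadjusted p under 0.05, 9 of all 35 members were higher, Sox9 among them, and 2 were lower. Of all genes 8.88% were higher and 10.6% lower. DESeq2, run on the same counts, called 5 members, Hoxb6, Hoxb7 and Sox9 higher and Hoxa4 and Tbx19 lower, where it called 7.8% of 5000 genes, 2.5% higher and 5.3% lower.

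The Hoxb cluster (chr11:96194316-96368254, GRCm38) showed the largest difference in summed level of the 4 clusters. Its 10 genes summed to 108 CPM in each Ctrl-F1 library, to 830 and 403 CPM in KO-F1 (616 ± 302, SD, n = 2) and to 93.6 and 73.6 CPM in KO-F2. Both KO-F1 libraries were therefore above the other 4, with KO-F1 replicate 1 the higher of the pair. The 6 Hoxb genes that reached the level of the test in libraries of both groups all had a positive change, with a median of 1.83 on the log2 scale, against 0.78 over the 32 such members and -0.03 over the 9802 such genes. Hoxb4 (4.53 and 0 against 15.8 and 4.32 CPM) and Hoxb5 (0.41 and 22.6 against 34.9 and 20.1 CPM) were among the 6, and their groups overlapped.

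Hoxb7, a trunk patterning gene, stood at 28.0 and 13.3 CPM in Ctrl-F1 spermatozoa and at 185 and 126 CPM in KO-F1 spermatozoa. The groups did not overlap, and the log2 fold change was 2.46 (SE 0.50, adjusted p = 0.14, edgeR). DESeq2 gave an adjusted p of 0.000519 for it. Hoxb7 is on the list of genes that the study selected from these same libraries, as is Sox9, so neither is independent evidence of direction.

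Hoxb6, its neighbour in the cluster, stood at 9.89 and 33.9 CPM in Ctrl-F1 and at 226 and 93.5 CPM in KO-F1 (log2 fold change 2.37, SE 0.71, adjusted p = 0.153, edgeR), a change that ranged from 1.64 without Ctrl-F1 replicate 1 to 3.66 without Ctrl-F1 replicate 2. Hoxb2, a hindbrain patterning gene at the other end of the cluster, stood at 32.1 and 16.6 against 169 and 87.3 CPM (1.94 on the log2 scale, SE 0.52). Hoxb9, which acts in the thoracic skeleton, stood at 26.8 and 17.3 against 163 and 39.3 CPM (1.72, SE 0.67), and its change was 0.47 without KO-F1 replicate 1 and 2.41 without KO-F1 replicate 2. In each of these 3 genes the groups did not overlap, and KO-F1 replicate 1 was the higher KO-F1 library. At the 2 ends of the cluster Hoxb1 and Hoxb13 had no count in any F1 spermatozoa library.

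The Hoxd cluster (chr2:74668225-74765142, GRCm38) summed to 77.1 and 97.8 CPM in Ctrl-F1, 404 and 240 CPM in KO-F1, and 61.1 and 45.2 CPM in KO-F2 spermatozoa. Hoxd8, whose promoter is printed above, stood at 26.8 and 49.9 CPM in Ctrl-F1 and at 191 and 121 CPM in KO-F1 (log2 fold change 1.54, SE 0.51). Its change was 1.07 without Ctrl-F1 replicate 1 and 2.21 without Ctrl-F1 replicate 2. Hoxd3, which patterns the neck, stood at 22.7 and 12.6 against 72.7 and 54.7 CPM (1.41, SE 0.55). Hoxd9, a limb and lumbar patterning gene, stood at 26.8 and 35.3 against 135 and 50.8 CPM. The groups did not overlap for any of the 3. Hoxd4 had no count in Ctrl-F1 spermatozoa and 8 and 7 counts in KO-F1, and with a floor of 3 counts per control library its mean was only at least 1.93-fold higher.

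The Hoxa cluster (chr6:52155367-52260880, GRCm38) went the other way in its sum, 335 and 372 CPM in Ctrl-F1 against 206 and 241 CPM in KO-F1, and that sum is mostly Hoxa4. Hoxa4 stood at 304.5 and 329 CPM in Ctrl-F1 and at 141 and 180 CPM in KO-F1 (log2 fold change -1.42, SE 0.41, adjusted p = 0.144, edgeR; DESeq2 adjusted p = 0.00831). The other 3 Hoxa genes tested had positive changes. Hoxa10, a factor of the genital tract, stood at 23.1 and 14.6 CPM in Ctrl-F1 and at 25.6 and 47.5 CPM in KO-F1, a small separation. The Hoxc cluster was low and uneven, with sums of 4.12 and 30.6 CPM in Ctrl-F1 and 14.0 and 61.9 CPM in KO-F1.

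**Figure D3:**
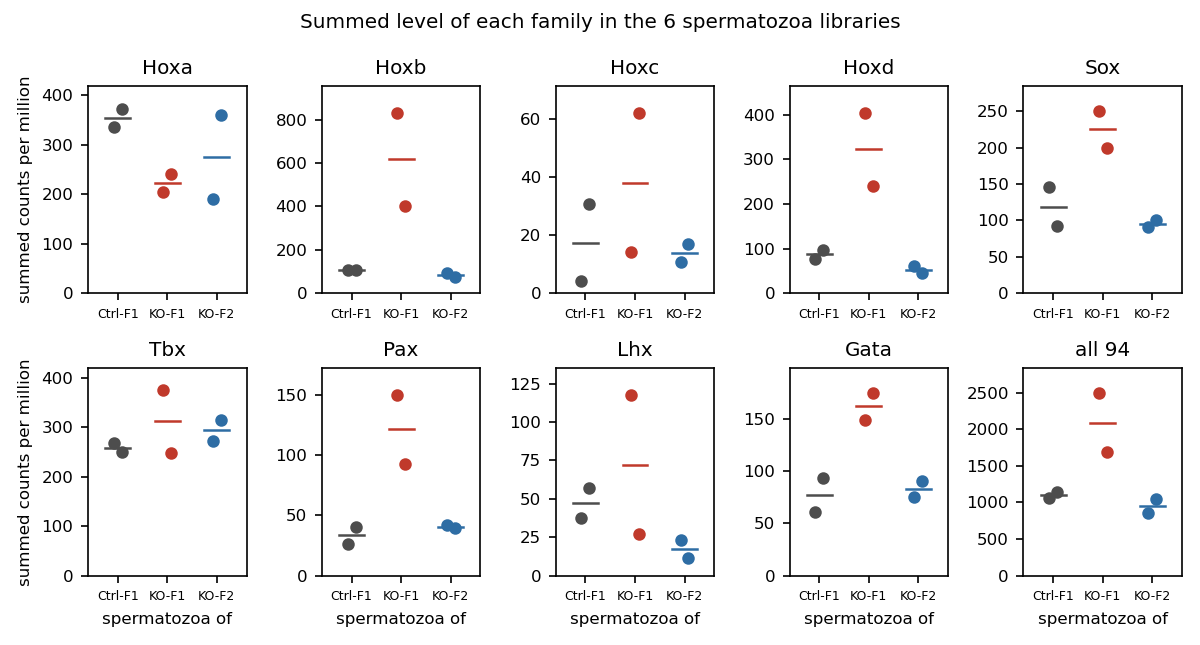
Summed CPM of each Hox cluster and of each other family (vertical axes, each from 0) in the spermatozoa of Ctrl-F1, KO-F1 and KO-F2 males. Points are libraries and lines are means of 2. The KO-F1 points lie above all others for Hoxb, Hoxd, Sox, Pax, Gata and all 94 genes, below those of Ctrl-F1 for Hoxa, and on both sides of the Ctrl-F1 points for Lhx and Tbx.

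Sox9, which directs Sertoli cells in the testis and cartilage elsewhere, had no count in either Ctrl-F1 spermatozoa library. It had 148 and 87 counts in KO-F1 spermatozoa, equal to 53.3 and 41.7 CPM, and so was at least 29.4-fold higher on the means with a floor of 3 counts per control library. It was not called by edgeR (adjusted p = 0.14). In liver Sox9, a gene of bile duct cells there, was present at a low and even level of 1.05 to 2.20 CPM in all 4 libraries. Sox13 and Tbx21 also had no count in the Ctrl-F1 spermatozoa, and stood at 6.12 and 3.84 CPM and at 1.44 and 4.80 CPM in KO-F1. With the same floor their means were only at least 3.08-fold and 1.93-fold higher. Counts of Lhx1 were 2 and 0 in the Ctrl-F1 libraries, and KO-F1 spermatozoa gave 6 and 3. The lower KO-F1 library of Tbx21 and that of Lhx1 each lay below the floor of Ctrl-F1 replicate 2 (1.995 CPM). No clear difference is shown for either gene.

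Pax8, a factor of thyroid, kidney and genital ducts, stood at 16.1 and 36.6 CPM in Ctrl-F1 and at 116 and 77.7 CPM in KO-F1 (log2 fold change 1.40, SE 0.58, adjusted p = 0.239, edgeR). Its change was 0.83 without Ctrl-F1 replicate 1 and 2.26 without Ctrl-F1 replicate 2. Pax2, which acts with Pax8 in those organs, stood at 6.18 and 3.33 against 33.1 and 13.0 CPM. Both Pax genes tested thus had non-overlapping groups in CPM. Tbx3, a repressor close to Tbx2 in sequence, stood at 26.0 and 13.3 against 87.5 and 108 CPM (log2 fold change 1.90, SE 0.52, adjusted p = 0.142, edgeR). Tbx2 itself did not separate: it stood at 72.5 and 67.2 CPM in Ctrl-F1 and at 217 and 66.7 CPM in KO-F1, and its change of 0.54 (SE 0.55) became -0.45 without KO-F1 replicate 1.

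Tbx19 had the smallest p among the members with a negative change. It stood at 145 and 127 CPM in Ctrl-F1 and at 41.0 and 58.5 CPM in KO-F1 spermatozoa, without overlap (log2 fold change -1.88, SE 0.44, adjusted p = 0.14, edgeR; DESeq2 adjusted p = 0.0047). Among the other factors with known germ cell expression, Sox30 stood at 28.8 and 19.3 against 18 and 46.0 CPM, with overlap and a change of 0.01 (SE 0.69), and Sox5 at 27.2 and 5.99 against 6.84 and 3.36 CPM, also with overlap. Sox4 stood at 42.9 and 45.2 against 121 and 92.1 CPM, and Gata2 and Gata3 at 42.4 and 56.5 against 77.7 and 122 CPM and at 11.1 and 36.6 against 69.5 and 51.8 CPM. The groups of these last 3 genes did not overlap in CPM. Lhx6 overlapped, at 28.4 and 53.9 against 108 and 22.1 CPM.

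**Figure D4:**
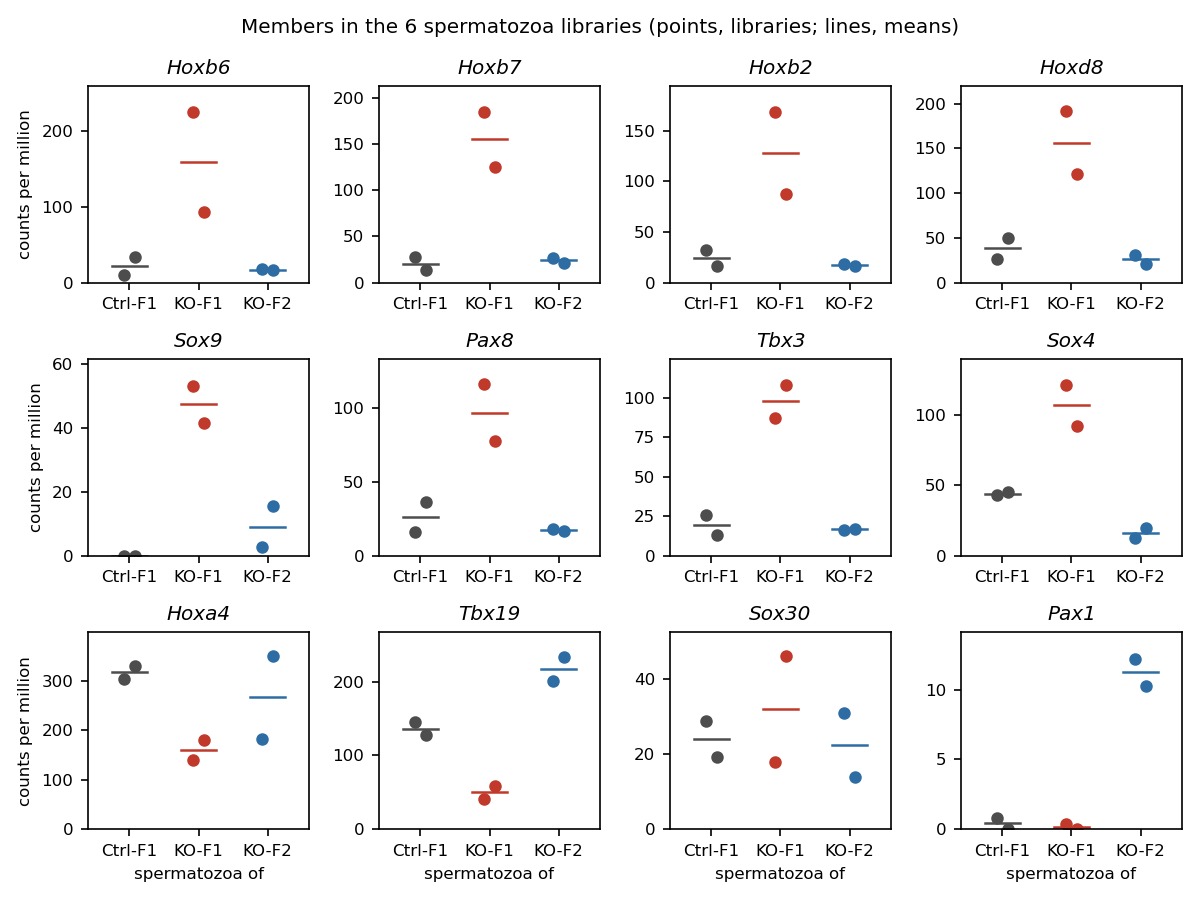
CPM (vertical axes, each from 0) of 12 members in the spermatozoa of Ctrl-F1, KO-F1 and KO-F2 males. Points are libraries and lines are means of 2. The 8 genes of the first 2 rows have both KO-F1 points above both Ctrl-F1 points, Hoxa4 and Tbx19 have them below, and Sox30 overlaps. Pax1 lies between 10.3 and 12.2 CPM in KO-F2 and at or below 0.82 CPM in F1.

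Among the 34 members with a mean of at least 10 counts over the 4 libraries, both KO-F1 libraries were above both Ctrl-F1 libraries in CPM for 19 and below for 2, where 39% and 17.2% of all genes were so placed. With CPM scaled by TMM factors the counts were 15 and 3, against 27.2% and 26.6% of all genes. The CPM scale favours higher values in KO-F1, since without TMM factors the median change of all genes was 0.46 on the log2 scale against 0.02 with them. Of the 17 Hox genes in this set, 12 were higher in both KO-F1 libraries in CPM and 10 with TMM scaling. Hoxa4 was the 1 lower in CPM. The non-overlap stated above for single genes is in CPM and is to be read beside these shares of all genes. Not every one of those separations held with TMM scaling. Among the members higher in CPM, Hoxa7, Hoxb3, Hoxb8, Hoxc9 and Sox9 had at most 10 counts in each Ctrl-F1 library. They reached the mean through KO-F1, which favoured their place among the higher, so these counts are a description.

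**Figure D5:**
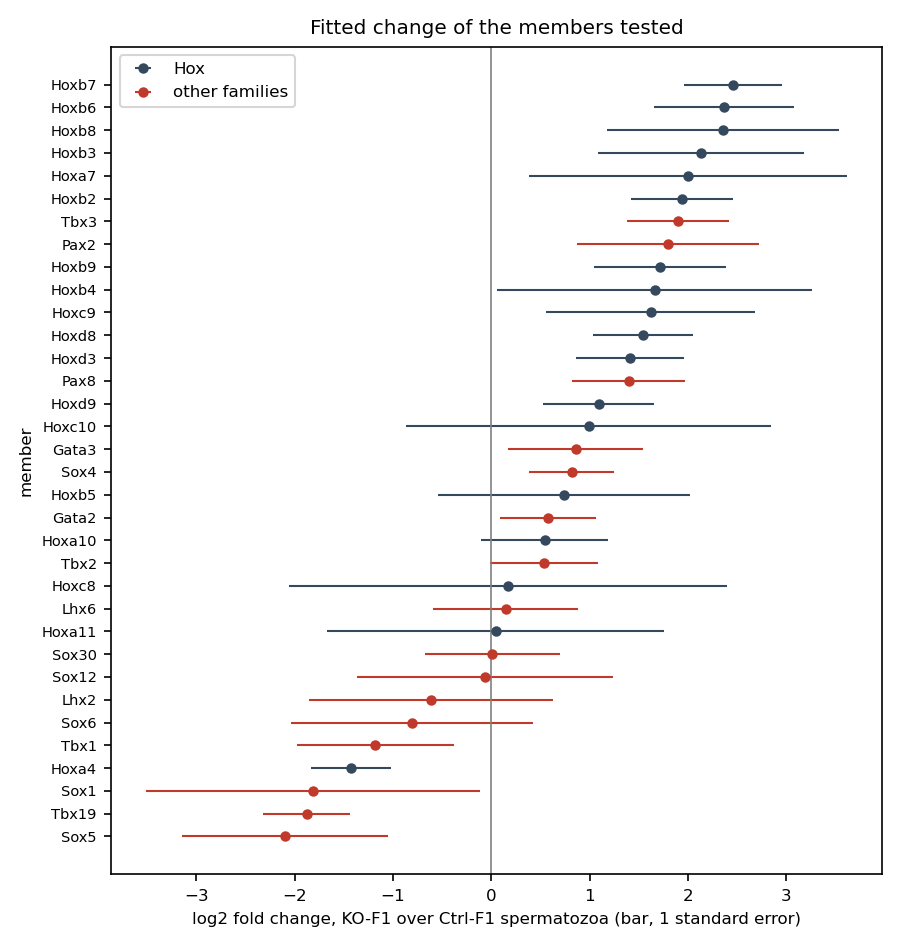
Log2 fold change of KO-F1 over Ctrl-F1 spermatozoa (horizontal axis) with 1 standard error for 34 of the 35 members tested, in order of size. Sox9 is left out because its control libraries are at 0. Hoxb3 and Hoxb8 reached the level needed for the test only in KO-F1. Hox genes fill most of the upper part, between 2.46 for Hoxb7 and 0.05 for Hoxa11, and Hoxa4 at -1.42 is the 1 Hox gene below 0.

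Other values moved with these groups. The 18 spermatid and sperm markers summed to 135289 and 120559 CPM in Ctrl-F1, 60061 and 44801 CPM in KO-F1, and 152322 and 149088 CPM in KO-F2 spermatozoa. Of the 17 tested between KO-F1 and Ctrl-F1, 0 were called, 16 were lower at an unadjusted p under 0.05 and the median change was -1.81. The 24 markers of the epididymal epithelium summed to 20447 and 6812 CPM in Ctrl-F1 and to 11193 and 13786 CPM in KO-F1, so the KO-F1 values lay between those of the controls, and 5 or 6 of the markers were at 0 in each of these libraries, the lipocalin gene Lcn6 in all 4. Markers of basal and clear cells of the epididymis summed to 124 and 188 CPM against 134 and 319 CPM, of stroma and smooth muscle to 291 and 698 against 429 and 749 CPM, of endothelium to 35.0 and 8.65 against 11.2 and 13.9 CPM, and of leukocytes to 169 and 543 against 277 and 363 CPM. The lists made for liver, of bile duct and stellate cells, summed to 373 and 203 against 473 and 483 CPM and to 163 and 406 against 310 and 405 CPM. The part of the spermatid markers, or of any of these cell types, in the members' differences was not tested.

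Reads of a gene and of an overlapping neighbour cannot always be told apart in these counts, since the spermatozoa kit did not keep strand and the counting setting is not given in the sources used here. In the GENCODE annotation 35 of the 94 members share exon positions with another gene, 27 of them on the opposite strand, and 16 of these 35 are Hox genes. Hoxa4, Hoxb2, Hoxb3, Pax8, Tbx3 and Sox4 each share bases with an antisense transcript, and Hoxd3 with Hoxd4 and others. Hoxb6, Hoxb7, Hoxb9, Hoxd8, Hoxd9, Sox9 and Tbx19 share none.

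KO-F2 spermatozoa were compared with the same 2 Ctrl-F1 libraries to see whether these genes differed a generation later. Of 13149 genes tested, 0 were called (percent called 0), and 39 of them were members. At an unadjusted p under 0.05 there were 3 members higher and 6 lower, against 9.07% and 5.83% of all genes. The 3 higher members, Pax1, Sox9 and Sox13, reached the level needed for the test only in KO-F2, so their direction was fixed by entry. DESeq2 called 0 members and 2.14% of 12963 genes, 1.15% higher and 0.987% lower. Among the 40 members with a mean of at least 10 counts, both KO-F2 libraries were above both controls for 10 and below for 8, against 35.3% and 14.6% of all genes. With TMM scaling these were 10 and 9, against 32.7% and 16.8%. This mean too can be reached through 1 group alone, as by Pax1 and Sox9 through KO-F2.

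Of the 9 Hoxb and Hoxd genes named above as higher in KO-F1, none had both KO-F2 libraries above both controls, and 3 had both below. These 9 were picked for KO-F1 values above the same 2 control libraries. Their tally is therefore a description, to be read beside the shares of all genes just given. Hoxb7 stood at 27 and 21.6 CPM in KO-F2, within the range of 13.3 to 28.0 CPM of the controls, and its change of 0.09 (SE 0.48) became -0.21 without Ctrl-F1 replicate 2 and -0.05 without KO-F2 replicate 1. Hoxb6 (17.7 and 16.3 CPM) and Hoxb2 (18.6 and 16.7 CPM) also lay within the control range, and Hoxd8 (31.0 and 21.4 CPM) had 1 library inside it and 1 below. Hoxb9 (9.16 and 4.89 CPM), Hoxd3 (8.55 and 4.53 CPM) and Hoxd9 (19.4 and 16.1 CPM) lay below both controls. Hoxb3 had 1 KO-F2 library above the controls and 1 among them, at 9.34 and 3.22 CPM against 2.47 and 3.33 CPM (log2 fold change 0.96, SE 0.95), and Hoxd4 had 10 and 6 counts against none in the controls. The smallest p values belonged to Tbx2, at 30.4 and 25.2 CPM (log2 fold change -1.49, SE 0.34, adjusted p = 0.192, edgeR), and to Hoxa10, at 2.70 and 4.41 CPM (-2.56, SE 0.64). Sox4, at 12.5 and 19.6 CPM, had a change of -1.63 (SE 0.43), and Lhx6, at 13.9 and 7.28 CPM, a change of -2.14 (SE 0.59).

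Hoxa4 and Tbx19, which were low in KO-F1, stood at 183 and 351 CPM and at 200.5 and 233 CPM in KO-F2. Their changes against the controls were -0.42 (SE 0.39) and 0.51 (SE 0.28), neither of them called. Sox9 stood at 2.62 and 15.6 CPM in KO-F2, at least 5.65-fold above the floor of the controls on the means and unequal between the libraries. Pax1, a factor of the sclerotome and thymus, had 140 and 86 counts in KO-F2 (12.2 and 10.3 CPM). The controls had 2 and 0 counts of it. Pax1 entered the test through KO-F2 alone, and its change of 4.37 (SE 1.13, adjusted p = 0.212, edgeR) was not called.

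KO-F2 spermatozoa were also set against KO-F1 spermatozoa, which shares its groups with the 2 comparisons above. Of 13517 genes tested, 2.31% were called, 2.11% higher and 0.2% lower in KO-F2. Of the 40 members tested 1 was called: Tbx19 rose from 41.0 and 58.5 CPM in KO-F1 to 200.5 and 233 CPM in KO-F2, a log2 fold change of 2.53 (SE 0.36, 5.77-fold, adjusted p = 0.0097, edgeR). The call rests on a narrow margin, with an adjusted p of 0.0102 without KO-F2 replicate 2 and 0.0159 with library totals in place of TMM. At an unadjusted p under 0.05 there were 5 members higher and 18 lower, against 22.4% and 14.4% of all genes (36.8% in both directions). Of these members, Pax1 reached the level needed for the test only in KO-F2 and Hoxa7 only in KO-F1. The direction of both was fixed by entry. DESeq2 called 3 members higher and 13 lower, against 9.25% and 4.35% of 15135 genes. The number of members called by edgeR was 14 without KO-F1 replicate 1, 19 without KO-F1 replicate 2, 1 without KO-F2 replicate 1 and 0 without KO-F2 replicate 2, where 10.3%, 19.2%, 1.74% and 2.64% of all genes tested were called.

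Among members lower in KO-F2 than in KO-F1, Hoxb7 (log2 fold change -2.24, SE 0.35, adjusted p = 0.0107, edgeR), Sox4 (-2.32, SE 0.37), Hoxb6 (-2.78, SE 0.45) and Hoxb2 (-2.42, SE 0.39) lay just outside the threshold of 0.01. All 8 Hoxb genes tested reached the level of the test in libraries of both groups and had a negative change, with a median of -2.33, against -1.21 over the 37 such members and 0.06 over the 12340 such genes. Among the 42 members with a mean of at least 10 counts, both KO-F2 libraries were below both KO-F1 libraries for 26 and above for 8, against 36.5% and 30.7% of all genes. With TMM scaling these were 24 and 9, against 27.6% and 38.4%. Here too the mean can be reached through 1 group alone, as by Pax1 through KO-F2. Of the 19 Hox genes among them 15 were lower and 1, Hoxa4, was higher (log2 fold change 1.13, SE 0.40, adjusted p = 0.0857, edgeR).

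Some members had counts in KO-F2 and few or none in F1 spermatozoa libraries, which were shallower. Pax1 had 1 and 0 counts in KO-F1 and its change was 6.07 (SE 1.11, adjusted p = 0.0145, edgeR). Gata6, a factor of endoderm and its derivatives, stood at 1.80 and 0.48 CPM in KO-F1 and at 11.7 and 22.1 CPM in KO-F2 (4.22, SE 0.81), with 7.00 and 0 CPM in Ctrl-F1. The B cell factor Pax5 had 17 and 27 counts in KO-F2 and at most 1 count in each F1 library. Gata5, Hoxb1, Sox10 and Sox17 had between 4 and 43 counts in each KO-F2 library and none in F1. The KO-F2 means of Hoxb1, Sox10 and Sox17 were 0.76, 0.56 and 1.05 CPM. These lay below the mean floor of 3 counts in Ctrl-F1 (1.62 CPM) and KO-F1 (1.26 CPM), so no higher level is shown for them. Hoxc5, Hoxd10, Hoxd11 and Tbx5 passed the floor of 3 counts in both KO-F2 libraries, with at most 28 counts, and missed it in both libraries of an F1 group while 1 library of the other F1 group passed it. The mean levels of Hoxc5, Hoxd10, Hoxd11 and Tbx5 in KO-F2 were 0.47, 1.07, 0.56 and 1.52 CPM. In the F1 group with a library above the floor they were higher, at 5.65, 5.04, 1.26 and 3.34 CPM. In all, 20 members were detected in at least 1 KO-F2 library and in no F1 spermatozoa library. The KO-F2 libraries had the greater depth.

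The leukocyte markers, 11 of 12 listed being in the files, summed to 2504 and 4127 CPM in KO-F2 against at most 543 CPM in F1 spermatozoa, and 4 of the 10 tested were called higher in KO-F2 than in KO-F1. Clec4f was at 0 in all 6 spermatozoa libraries. Epididymal epithelium markers summed to 3594 and 1933 CPM in KO-F2, below the F1 libraries. Their part in the KO-F2 differences of the members was not tested.

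In liver the question was whether the paternal loss of SCML2 left a trace in a somatic tissue. None of the 15 members tested (8 Sox, 3 Tbx, 2 Lhx and 2 Gata genes) was called, nor was any of the 11505 genes tested (percent called 0). DESeq2 called 0 members and 0.274% of 7306 genes, 0.0958% higher and 0.178% lower. At an unadjusted p under 0.05 there was 1 member, against 9.41% of all genes (3.99% higher and 5.42% lower): Sox6, a SoxD factor of muscle, cartilage and red cells, stood at 10.8 and 12.9 CPM in Ctrl-F1 and at 7.93 and 5.73 CPM in KO-F1 (log2 fold change -0.73, SE 0.25, adjusted p = 0.491, edgeR). Its groups did not overlap.

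The other liver members differed less. Gata6 stood at 4.62 and 6.13 against 4.74 and 2.03 CPM (-0.60, SE 0.43), Lhx6 at 3.15 and 3.57 against 2.62 and 2.12 CPM (-0.44, SE 0.40) and Sox18 at 2.45 and 4.92 against 2.37 and 2.91 CPM (-0.40, SE 0.45). Sox5 stood at 13.1 and 8.06 against 17.4 and 8.64 CPM (0.35, SE 0.37). Gata4 was the most even, at 13.0 and 14.1 against 13.5 and 12.5 CPM (0.01, SE 0.19). Sox12, Sox13 and Tbx3 stood between 3.97 and 6.42, between 4.85 and 7.49, and between 11.3 and 21.9 CPM over the 4 libraries. No Hox or Pax gene reached the level needed for the test in liver, where the 39 Hox genes together took between 1.85 and 3.14 CPM and no Hoxd gene had a count.

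Whether the KO-F1 change differed between spermatozoa and liver was tested with an interaction term, the signed change in spermatozoa minus that in liver. None of the 46 members tested was called, nor was any of the 14415 genes (percent called 0). At an unadjusted p under 0.05 there were 8 members with a positive interaction and 1 with a negative, against 7.85% and 6.49% of all genes. These 9 members were Sox9, Sox4, Sox13, Pax8, Tbx3, Hoxb3, Hoxb7 and Gata2 with a positive interaction and Sox5 with a negative one. The fitted KO-F1 change of Sox5 was -2.10 in spermatozoa and 0.35 in liver. Sox9 and Sox13 had no count in Ctrl-F1 spermatozoa, so their fitted interactions depend on the fit's handling of 0 and are not given as sizes. DESeq2 called 1 member, Sox9. Of those with 3 or more counts in every F1 library of both tissues, the interaction was 1.74 for Tbx3 (SE 0.64, adjusted p = 0.288, edgeR), 1.81 for Gata2 (SE 0.80, adjusted p = 0.348) and -2.61 for Sox5 (SE 1.08, adjusted p = 0.328). Without Ctrl-F1 spermatozoa replicate 1 the value of Sox5 was -1.13.

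The proteins with which Hox, Pax, Gata and Lhx factors act, such as the Pbx and Meis partners, the Zfpm and Lmo adaptors and the Eya and Dach proteins, were followed as a list of 25 genes. In spermatozoa of KO-F1 against Ctrl-F1, 16 were tested, 0 were called, 3 were higher and 2 lower at an unadjusted p under 0.05, and the median change was 0.16. Of the 21 tested between KO-F2 and KO-F1, Eya4 was called higher (log2 fold change 2.65, SE 0.39, adjusted p = 0.00982, edgeR), where 285 of 13517 genes were. Between Ctrl-F1 spermatozoa and liver Eya4 and Pbx4 were called higher, 2 of 18 tested, where 2461 of 13204 genes were. The list summed to 322 and 164 CPM in Ctrl-F1, 375 and 339.5 CPM in KO-F1, and 283 and 306.5 CPM in KO-F2, so that both KO-F1 libraries were above the other 4 spermatozoa libraries. For KO-F2 against Ctrl-F1 and for liver 0 of 21 and 0 of 14 were called.

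Of the 28 genes of the Polycomb complexes themselves, 22 were tested in KO-F1 against Ctrl-F1 spermatozoa. None was called, 3 were higher and 2 lower at an unadjusted p under 0.05, and the median change was 0.32 against 0.02 for all genes. Their summed level was 542 and 635 CPM in Ctrl-F1, 1116 and 948 CPM in KO-F1, and 688 and 799.7 CPM in KO-F2, so that both KO-F1 libraries were above the rest on the CPM scale, as for the members. Phc1, a subunit of PRC1, was called higher in KO-F2 than in KO-F1 (log2 fold change 2.26, SE 0.33, adjusted p = 0.0098, edgeR), where 285 of 13517 genes were. In Ctrl-F1 spermatozoa against liver 5 of 27 were called higher, among them Phc1, Phc2 and Bmi1, and Rbbp4 was called lower. Of all 13204 genes tested there, 2461 were called higher and 1529 lower, so the share called higher was near that of all genes. None of the 25 tested for KO-F2 against Ctrl-F1 and none of the 26 tested in liver was called.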

How the data were processed

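RNA-seq counts per gene were analysed for 10 libraries, 4 of liver and 6 of spermatozoa. The other 37 of the 47 samples of the series (ChIP-seq and embryos) were not analysed here. The authors made the deposited counts by aligning 75-base single-end reads to GRCm38/mm10 with HISAT2 2.1.0 and counting uniquely mapped reads per gene with featureCounts. The annotation and strand setting are not given in the sources used here, and the submitters' processing notes also name bcl2fastq 2.20.0, Bowtie2 2.3.3.1 and DESeq2 1.16.1. Liver libraries were made with TruSeq Stranded mRNA, and spermatozoa libraries, from motile cauda epididymal sperm, with SMART-Seq v4 and Nextera XT. Libraries were joined by gene symbol, leaving out the 4 lines of 2 symbols listed more than once.

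Groups were taken from the labels. Each comparison was fitted on its own groups with edgeR 4.0.16 (R 4.3.3, limma 3.58.1; TMM factors, filterByExpr with a minimum count of 10 and a total of 15, glmQLFit and glmQLFTest), and p-values were adjusted by Benjamini-Hochberg over all genes tested. Calls required an adjusted p below 0.01 and a difference of 2-fold or more. The interaction was fitted over the 8 F1 libraries. The fit was tested on simulated data. DESeq2 1.42.0, DESeq2 size factors, library totals, the counts unfiltered or limited to genes with 10 or more in each library, a replicate block, thinning to 1503733 counts, an adjusted p under 0.05 and leaving out each library were alternatives. Floors (3 counts) cover counting error only, since PCR copies cannot be told from molecules.

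Members and gene lists were chosen with earlier results of these data known. Named in full were members called in any test, members on the study's own gene lists, the 5 members with the smallest p in each pairwise comparison, the 8 with the highest mean CPM in each tissue, and those with 3 or more counts in both libraries of a spermatozoa group and under 3 in both of another, 41 in all. Exon lengths and overlaps are from GENCODE vM21, gene positions and promoters from RefSeq GRCm38.p6.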

Additional observations from a re-analysis of the deposited data

How the results depend on the processing

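The number of members called in KO-F1 against Ctrl-F1 spermatozoa was 0 with edgeR, 5 with DESeq2 (7.8% of all genes tested), 3 without a filter (0.672%) and 2 with at least 10 counts in every library (3.2%), and it stayed 0 under the other alternatives, which also called no other gene. In KO-F2 against KO-F1 spermatozoa it was 1 (2.31% of all genes), and it became 16 with DESeq2 (13.6%), 6 with DESeq2 size factors (3.42%), 0 with library totals (0%), 18 without a filter (13.6%), 15 with at least 10 counts in every library (20.4%), 12 after thinning (7.56%), 17 at an adjusted p under 0.05 (20.4%) and between 0 and 19 when single libraries were left out (1.74% to 19.2%). In Ctrl-F1 spermatozoa against liver it was 20 of 31, where 2461 of all 13204 genes were called higher and 1529 lower. It was 2 with at least 10 counts in every library, where most members cannot enter because they are near 0 in liver. The interaction gave 0 with edgeR, which called 0 of all 14415 genes, or 1 with DESeq2. No member was called in liver or in KO-F2 against Ctrl-F1 under any alternative. Over all genes, calls were 0 and 390 (edgeR and DESeq2) in KO-F1 against Ctrl-F1 spermatozoa, 0 and 277 in KO-F2 against Ctrl-F1 (39 without a filter, 1 with at least 10 counts in every library, 362 with the replicate block and 35 to 277 without single libraries), 312 and 2058 in KO-F2 against KO-F1, and 0 and 20 in liver (0 to 25 under the other alternatives with all libraries, and 4 to 107 without single libraries).

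Replicate numbers are shared by the groups, but same-numbered libraries did not deviate together (correlations between -0.09 and 0.12), so the numbers do not pair them. With the replicate block the members called in KO-F2 against KO-F1 spermatozoa were 10 (6.06% of all genes), those in Ctrl-F1 spermatozoa against liver were 18, and the change of Sox30 in KO-F1 against Ctrl-F1 was -0.16.

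The median number of members detected in liver, 23, became 14 at 10 or more counts, 11 after thinning and 9 after thinning without Rn45s. Without Rn45s in the total, the summed level of the members was 1470 CPM in Ctrl-F1 and 2664 CPM in KO-F1 spermatozoa. Of 525 alternatives for 48 log2 fold changes, 11 reversed the sign, all of them of changes that were not called. Gata4 in liver became -0.06 with library totals and -0.02 after thinning. Besides Sox30 with the replicate block, the others came from leaving out 1 library each: the changes then ranged from -0.89 to 0.57 for Sox30 and from -0.45 to 1.14 for Tbx2 in KO-F1 against Ctrl-F1 spermatozoa, from -0.21 to 0.62 for Hoxb7 in KO-F2 against Ctrl-F1, from -0.19 to 0.81 for Sox5 and from -0.77 to 0.13 for Sox18 in liver, and from -0.12 to 0.93 for Tbx3 in Ctrl-F1 spermatozoa against liver.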
